A study of Drosophila melanogaster with 60 samples.

Results

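The change of fat tissue RNA across lights off was measured in wild-type (w1118) Drosophila melanogaster by setting 8 libraries of the first hours of darkness (ZT14 and ZT16) against 8 libraries of the last hours of light (ZT10 and ZT12). ZT is zeitgeber time, counted in hours from lights on. Darkness began at ZT12, so the ZT12 flies were taken at the nominal moment of the change. The 16 libraries were chosen by genotype and time alone, out of 60 in the series. On each side, 4 libraries came from flies held at 18 °C and 4 from flies held at 25 °C, and each temperature and time was sampled on 2 independent occasions, called sampling 1 and sampling 2 here. All flies were mated females, about 3 days old when they entered 5 days of entrainment to 12 h of light and 12 h of dark on a sucrose and yeast diet. Each library is poly(A) RNA of the abdominal fat left on the epidermis of 10 pooled flies after removal of gut, Malpighian tubules and ovaries. Flies carrying Clk-Jrk, a dominant negative allele of the clock gene Clk that had been backcrossed to w1118 for 7 generations, were sampled every 4 h at 25 °C. They allow the nearest comparison in flies with a disrupted clock, ZT14 against ZT10.

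The fly fat body does the work that liver and adipose tissue share in mammals: it stores fat and glycogen, clears toxins, breaks down amino acids and secretes blood proteins. Its cells hold their own circadian clock, in which the proteins Clk and cyc switch on per, tim, vri and Pdp1, and the per and tim proteins return to the nucleus at night and silence Clk and cyc. Light reaches this clock through cry, a blue-light receptor that marks tim protein for destruction, and darkness lets tim protein build up.

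Total estimated counts ran from 5808864 to 25133564 (median 9309487) at ZT14 and ZT16, and from 4923858 to 23316995 (median 11140079) at ZT10 and ZT12. The summed RNA of 14 fat body marker genes, among them the yolk proteins and lipid carriers, was 37000 to 205000 CPM (counts scaled to the library size) after lights off and 48600 to 202000 CPM before, and none of the 14 was at 0 in all 16 libraries. The tissue label thus stood beside high levels of its defining genes in every library. Markers of cells not named as removed were present too. The 10 oenocyte markers summed to 54200 to 113000 CPM after lights off and 52400 to 116000 CPM before. The 22 muscle markers summed to 5110 to 11000 CPM after and 4310 to 9520 CPM before. The part of these cells in the differences was not tested. Markers of organs that the dissection takes out were at lower levels than those of fat body. The 32 gut genes summed to 351 to 12000 CPM after lights off and 500 to 5610 CPM before. The 27 ovary genes summed to 156 to 2980 CPM after and 527 to 3110 CPM before. At 18 °C the ovary sums did not overlap (156 to 1510 CPM after, 1630 to 3110 CPM before). At 25 °C the gut sums were 351 to 12000 CPM (median 5300) after and 500 to 3600 CPM (median 588) before. The part of gut RNA in the 25 °C differences was not tested. The library of 25 °C, sampling 1, ZT14 stood apart by gut RNA (12000 CPM). That of 25 °C, sampling 1, ZT10 stood apart by photoreceptor RNA (2620 CPM, against 92.0 to 243 CPM in the other 15 libraries). Counts of DESeq2 calls without these 2 libraries are given beside the main ones where they moved. The flies were kept in a pair of incubators with opposite light schedules so that all dissections fell in the day. Which incubator held which sample was not stated in the labels used here, so that lights off and a change of incubator cannot be told apart. In bulk tissue, fewer cells of a type and less RNA per cell cannot be told apart either.

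Among the genes with the smallest p across lights off, those with less RNA in the dark included Miox (myo-inositol oxygenase, which opens the inositol ring on the way to its breakdown), Ugt36D1 (a UDP-glycosyltransferase, an enzyme class that tags small molecules for removal), the fatty acyl-CoA reductase relatives CG17560 and CG17562, the secreted esterase Est-6 and the light receptor gene cry. Their RNA was lower at ZT14 and ZT16 by 0.61 to 1.08 on the log2 scale. Genes that were higher included the potassium channel genes Irk1 and Irk3 and the asymmetric-division gene numb. No gene passed edgeR's quasi-likelihood test at a Benjamini-Hochberg adjusted p under 0.05 over the 9369 genes tested (0 called, smallest adjusted p 0.297). At an unadjusted p under 0.05 there were 724 genes (7.73%), of which 289 (3.08%) were higher and 435 (4.64%) lower. DESeq2, a second count test with the same design, called 53 genes (0.566%), 12 (0.128%) higher and 41 (0.438%) lower. These shares are of all 9369 genes, and DESeq2 gave no adjusted p to 3996 of them. Without the 2 libraries that stood apart it called 55, and the lean to lower levels was absent (27 higher, 28 lower). The 25 °C libraries then left still differed in gut RNA, with sums of 5040, 351 and 5550 CPM after lights off and 500 to 658 CPM before. The part of gut RNA in these calls was not tested. The edgeR adjusted p for the 53 ran from 0.297 to 0.591. Of the 53, 50 had 1 sign in all 4 blocks of temperature and sampling, against 27.3% of all tested genes (1230 higher and 1325 lower), a share that the choice by small p raises. The 8 libraries of 1 side did not lie wholly above or below the 8 of the other for any of the 9369 genes. The genes described next have the smallest p among tested genes with a mean of at least 3 log2 CPM and 1 sign in every block compared, or were called by DESeq2, and were chosen after their values were seen, since no gene met the naming rule outside the clock lists. The spread here is that between samplings of pooled flies.

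Miox (FBgn0036262, chromosome 3L, 12184984 to 12187860, plus strand, BDGP6.54 annotation) ranged over 8.86 to 10.51 log2 CPM (median 9.86) at ZT14 and ZT16, and over 9.97 to 11.54 log2 CPM (median 10.95) at ZT10 and ZT12. At 25 °C the 4 libraries after lights off had 9.86, 8.89, 9.82 and 9.87 log2 CPM, and the 4 before had 10.30, 10.65, 11.33 and 11.54 log2 CPM. All 4 later libraries were thus below all 4 earlier ones at 25 °C, whereas at 18 °C the groups overlapped (8.86, 9.91, 10.51 and 10.34 after, 10.41, 9.97, 11.49 and 11.24 before). On the scale of TPM, which takes gene length into account, Miox averaged 752 ± 257 TPM after and 1500 ± 455 TPM before (SD, n = 8 each). The log2 difference was -1.08 ± 0.18 (SE; edgeR adjusted p = 0.297, DESeq2 adjusted p = 1.89e-05), with -0.84 ± 0.25 at 18 °C and -1.31 ± 0.26 at 25 °C. It was lower in 4 of 4 blocks, which its choice required. Est-6 (FBgn0000592, chromosome 3L, 12188818 to 12190705, plus strand) lies downstream of Miox on the same strand. Its level was 6.35 to 7.82 log2 CPM (median 7.34) after and 6.82 to 8.94 log2 CPM (median 7.78) before, a log2 difference of -0.82 ± 0.17 (edgeR adjusted p = 0.389), with -0.76 ± 0.24 at 18 °C and -0.88 ± 0.24 at 25 °C. The counting is not stated to use strand, so reads where transcripts of neighbours overlap could be split between them.

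Ugt36D1 (FBgn0032713, chromosome 2L, 18823548 to 18826716, plus strand) had 5.08, 4.84, 4.72 and 5.12 log2 CPM after lights off at 25 °C, against 5.78, 5.85, 6.0 and 5.85 log2 CPM before. At 18 °C it had 6.31, 6.48, 6.31 and 5.79 log2 CPM after, against 6.46, 6.74, 6.87 and 6.72 log2 CPM before. The groups were apart at 25 °C and met at 18 °C, where the level was higher on both sides. The log2 difference was -0.69 ± 0.12 over both temperatures (edgeR adjusted p = 0.297), -0.46 ± 0.15 at 18 °C and -0.93 ± 0.16 at 25 °C (edgeR adjusted p = 0.245). CG17560 (FBgn0038450, chromosome 3R, 16617950 to 16619878) and CG17562 (FBgn0038449, chromosome 3R, 16615309 to 16617154) lie next to each other on the plus strand and encode related proteins of the family that reduces fatty acyl-CoA to fatty alcohols. Reads they share could have been split between them. CG17560 had 8.84, 8.24, 8.49 and 9.11 log2 CPM after lights off at 25 °C, against 9.71, 9.45, 10.30 and 9.81 log2 CPM before. CG17562 had 6.26, 6.12, 6.21 and 6.62 log2 CPM after, against 7.10, 7.40, 7.38 and 7.62 log2 CPM before. Both were thus apart at 25 °C, and both overlapped at 18 °C, where CG17562 had 7.29, 7.36, 6.82 and 6.2 log2 CPM after lights off, against 7.53, 7.31, 7.37 and 7.25 log2 CPM before. The log2 differences of CG17560 were -0.83 ± 0.17 over both temperatures (edgeR adjusted p = 0.389), -0.53 ± 0.22 at 18 °C and -1.13 ± 0.23 at 25 °C. Those of CG17562 were -0.76 ± 0.15 (edgeR adjusted p = 0.389), -0.43 ± 0.17 and -1.07 ± 0.17 in the same order.

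**Figure D1:**
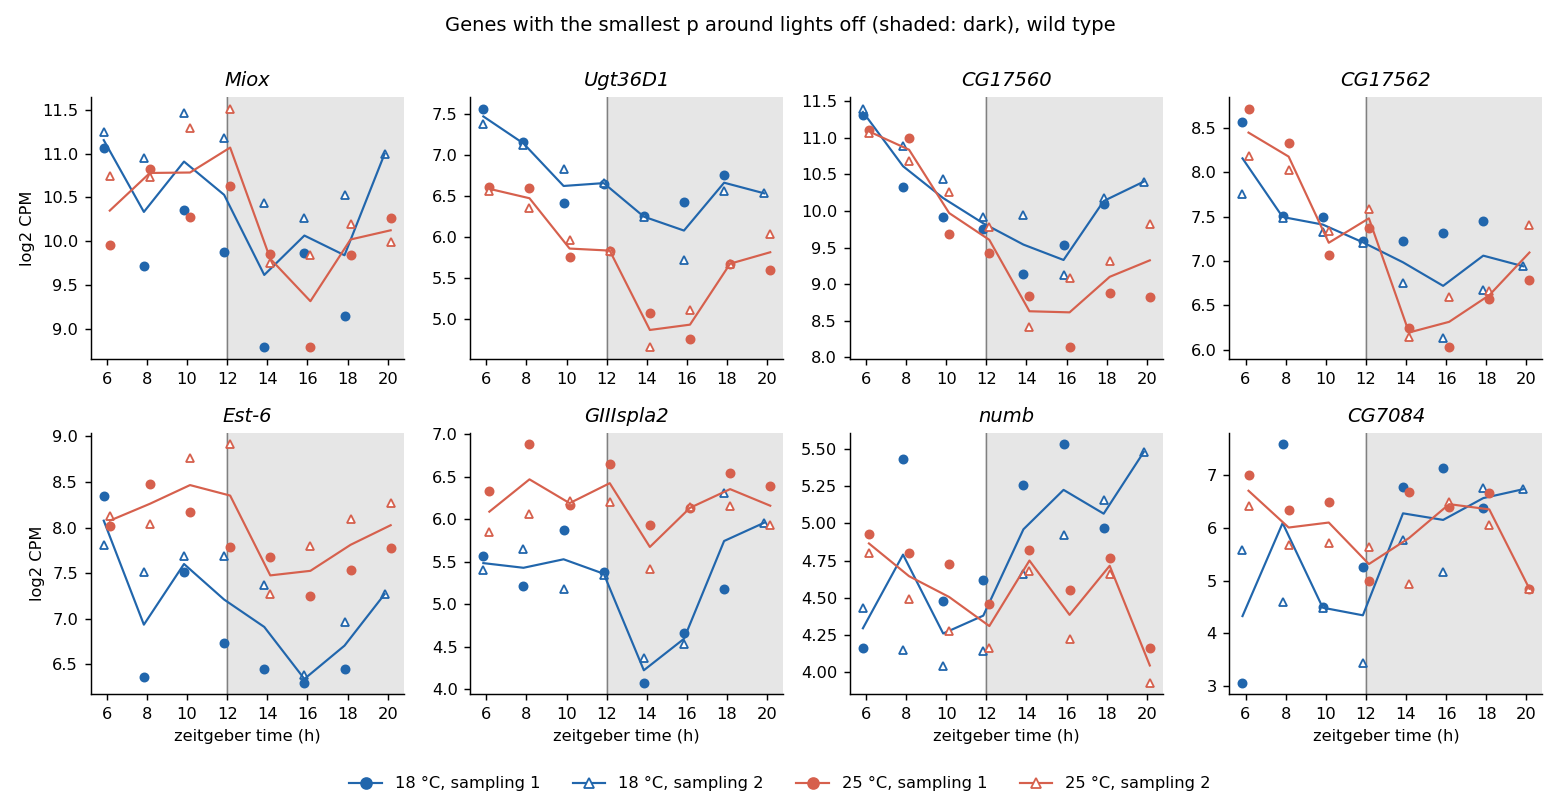
RNA level (log2 CPM, vertical axis) of 8 genes with small p against zeitgeber time in hours (ZT6 to ZT20, horizontal axis) in wild-type flies at 18 °C (blue) and 25 °C (red), with circles for sampling 1, triangles for sampling 2, lines through the means and shading for darkness. Ugt36D1 and CG17560 are lower at ZT14 and ZT16 than at ZT10 and ZT12 in the mean of each temperature, and numb and CG7084 show their higher level at 18 °C; values are scaled over all libraries of ZT6 to ZT20 and so differ slightly from those in the text.

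Among the 17 tested clock genes, cry and Clk were the only ones with a lower level at an unadjusted p under 0.05. The repressor genes per and tim did not reach that threshold (edgeR unadjusted p = 0.121 and 0.255). For cry (FBgn0025680, chromosome 3R, 19212154 to 19215442, plus strand) the level was 5.94 to 7.18 log2 CPM (median 6.57) after lights off and 6.55 to 7.86 log2 CPM (median 7.11) before. The ranges overlapped over all 16 libraries. Its log2 difference was -0.61 ± 0.13 (edgeR adjusted p = 0.389, DESeq2 adjusted p = 0.00522), with -0.49 ± 0.19 at 18 °C and -0.72 ± 0.19 at 25 °C. Clk (FBgn0023076, chromosome 3L, 7763233 to 7775603, minus strand), whose own RNA is known to cycle in opposite phase to per and tim, had 3.60, 3.32, 3.41 and 3.36 log2 CPM after lights off at 25 °C, against 4.04, 3.95, 3.98 and 4.13 log2 CPM before. At 18 °C it had 2.77, 3.52, 2.41 and 2.71 log2 CPM after, against 3.39, 3.24, 2.75 and 2.44 log2 CPM before. The 25 °C groups were apart by more than the width of either, and the 18 °C groups lay over each other. The log2 difference was -0.61 ± 0.17 at 25 °C (edgeR adjusted p = 0.858), -0.07 ± 0.17 at 18 °C and -0.35 ± 0.14 over both (edgeR adjusted p = 0.591). The difference between the temperatures was 0.53 ± 0.24 (edgeR adjusted p = 1), 18 °C minus 25 °C.

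The gene tim had 8.23 to 9.14 log2 CPM (median 8.70) at ZT14 and ZT16 and 7.66 to 9.44 log2 CPM (median 8.47) at ZT10 and ZT12. Its log2 difference was 0.22 ± 0.18 (edgeR adjusted p = 0.745), made of -0.00 ± 0.25 at 18 °C and 0.44 ± 0.25 at 25 °C. Over the wider time course its level moved most at other hours. At 25 °C the mean tim level was 5.72, 6.82, 8.02, 8.24, 8.49, 8.59, 9.14 and 8.79 log2 CPM at ZT6 to ZT20 in steps of 2 h, with its steepest part between ZT6 and ZT10. At 18 °C the means were 8.25, 8.43, 8.56, 9.0, 8.84, 8.70, 8.55 and 7.46 log2 CPM, highest at ZT12. The gene per, the partner of tim, had 4.06 to 5.98 log2 CPM (median 4.74) after and 3.79 to 5.73 log2 CPM (median 4.28) before, a log2 difference of 0.28 ± 0.17 (edgeR adjusted p = 0.709).

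In the second loop, vri, a repressor of Clk transcription, differed by -0.02 ± 0.22, with -0.30 ± 0.30 at 18 °C and 0.25 ± 0.30 at 25 °C, and Pdp1, an activator of Clk, by 0.17 ± 0.22. The repressor cwo differed by 0.04 ± 0.15 and the Clk partner cyc by -0.04 ± 0.07. Of the 10 genes of light input and protein turnover, cry was the 1 lower and nmo, a kinase gene, the 1 higher at an unadjusted p under 0.05. The level of nmo was 3.66 to 5.25 log2 CPM (median 4.36) after and 3.37 to 4.67 log2 CPM (median 4.03) before, a log2 difference of 0.46 ± 0.20 (edgeR adjusted p = 0.636). The other 8 of that list had no p under 0.05.

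**Figure D2:**
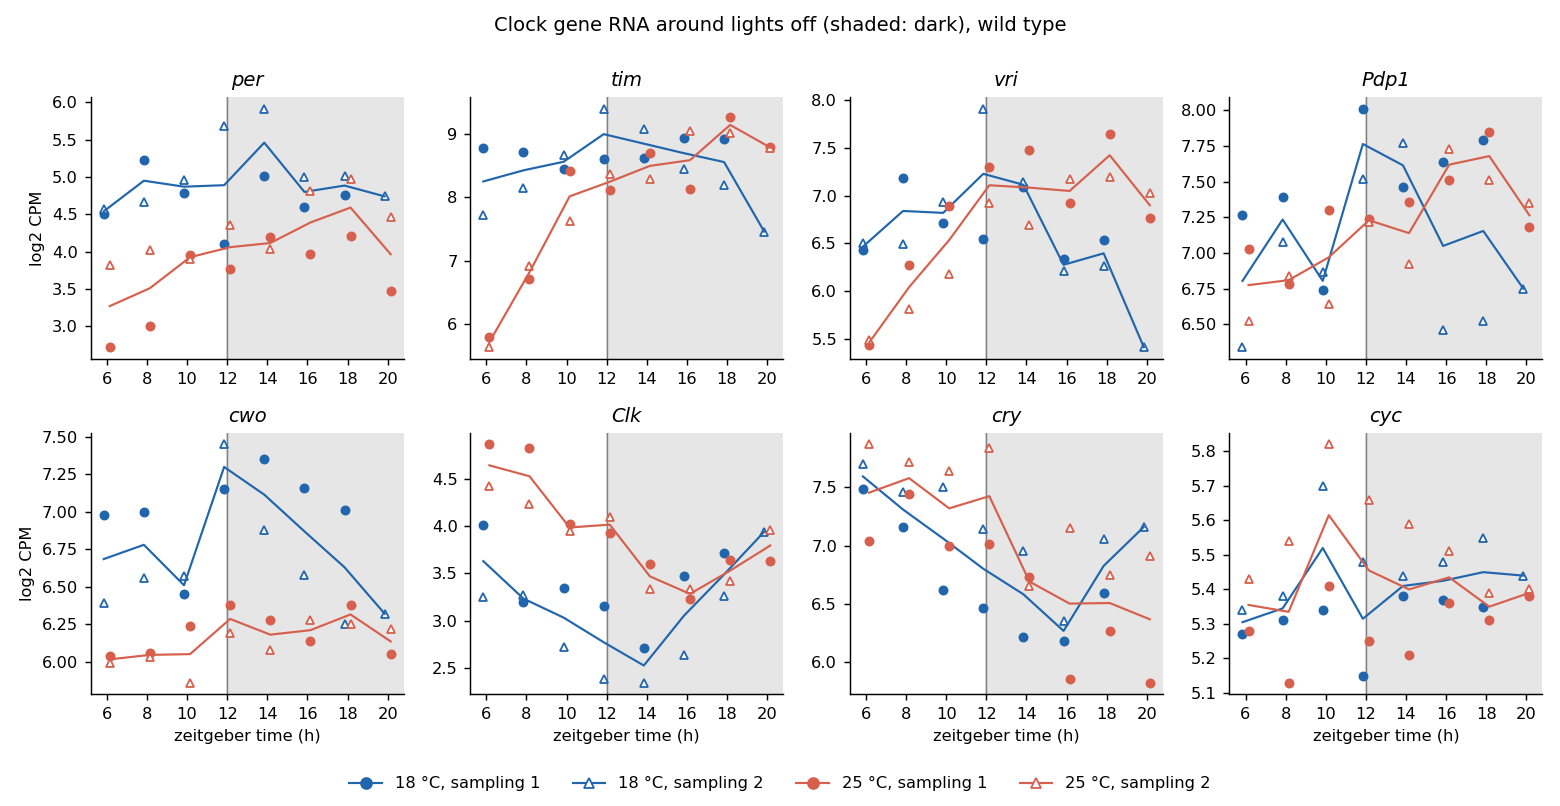
RNA level (log2 CPM, vertical axis) of 8 clock genes against zeitgeber time in hours (horizontal axis) in wild-type flies at 18 °C (blue) and 25 °C (red), drawn with circles for sampling 1, triangles for sampling 2, lines through the means and shading for darkness. Clk at 25 °C and cry at both temperatures have lower means at ZT14 and ZT16 than at ZT10 and ZT12. The level of tim at 25 °C goes through most of its range between ZT6 and ZT10 (means 5.72 and 8.02 log2 CPM).

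Within 18 °C, the smallest p belonged to numb, which divides cell fates by blocking Notch, and to GIIIspla2, a secreted phospholipase A2. The numb level (FBgn0002973, chromosome 2L, 9437469 to 9464184, plus strand) was 5.32, 5.58, 4.73 and 4.99 log2 CPM after lights off and 4.52, 4.71, 4.07 and 4.2 log2 CPM before. All 4 later libraries were higher, by a log2 difference of 0.79 ± 0.13 (edgeR adjusted p = 0.564), while at 25 °C the difference was 0.19 ± 0.13 and the groups overlapped (4.25 to 4.82 after, 4.19 to 4.75 before). GIIIspla2 (FBgn0030013, chromosome X, 8157628 to 8159348, plus strand) had 4.14, 4.71, 4.44 and 4.60 log2 CPM after and 5.92, 5.47, 5.22 and 5.40 log2 CPM before at 18 °C, where the groups were apart. The log2 difference was -1.03 ± 0.19 at 18 °C (edgeR adjusted p = 0.735) and -0.37 ± 0.19 at 25 °C. CG7084 and CG15406 were among the other genes of small p at 18 °C. CG7084, of the organic cation transporter family, had 6.85, 7.19, 5.84 and 5.24 log2 CPM after and 4.54, 5.34, 4.5 and 3.49 log2 CPM before at 18 °C, with 1 library on each side in reach of the other (5.24 after, 5.34 before). Its log2 difference was 1.78 ± 0.40 at 18 °C (edgeR adjusted p = 0.774) and 0.45 ± 0.38 at 25 °C. CG15406, of the sugar transporter family, differed by 1.61 ± 0.35 at 18 °C (edgeR adjusted p = 0.761) and 0.25 ± 0.34 at 25 °C. The sum of Malpighian tubule markers at 18 °C was 406 to 675 CPM after and 296 to 487 CPM before, and its part in these values was not tested.

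At 18 °C edgeR called 0 genes (smallest adjusted p 0.564); 391 (4.17%) had an unadjusted p under 0.05, 170 (1.81%) higher and 221 (2.36%) lower, and DESeq2 called 38 (0.406%). Groups that did not overlap were found for 48 genes higher and 81 lower (1.38% of tested genes in all). Among the 38 were the antimicrobial genes AttA, AttB, AttC, CecA1 and Mtk and the eggshell genes Cp7Fa, Cp15, Cp16, Cp18, Cp19, Cp36 and Cp38, which the follicle cells of the ovary are known to make. Cp18 had -2.54, -2.03, -1.43 and -1.63 log2 CPM after lights off at 18 °C, against 5.62, 0.35, 4.83 and 7.13 log2 CPM before. The levels after are at or near the floor set by the prior count of 2, so no fold is given. These eggshell genes are themselves on the ovary marker list, whose sums did not overlap at 18 °C.

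At 25 °C the leading genes were CG17562, Ugt36D1, Ate1, Miox, CG17560 and CG10097, all lower after lights off. CG10097 (FBgn0038033, chromosome 3R, 12390166 to 12395980, minus strand), another fatty acyl-CoA reductase relative, had 8.65, 7.92, 7.82 and 8.45 log2 CPM after and 9.14, 10.12, 9.44 and 9.28 log2 CPM before at 25 °C. The groups were apart there, whereas at 18 °C they covered the same range (9.80 to 10.89 after, 10.13 to 10.85 before). Its log2 difference was -1.29 ± 0.28 at 25 °C (edgeR adjusted p = 0.637) and -0.18 ± 0.27 at 18 °C. Ate1, which adds arginine to proteins bound for degradation, had 5.45, 5.37, 5.48 and 5.40 log2 CPM after and 5.80, 5.77, 6.12 and 6.24 log2 CPM before at 25 °C, a log2 difference of -0.56 ± 0.10 (edgeR adjusted p = 0.261). At 18 °C its difference was 0.13 ± 0.10. Over all genes at 25 °C, edgeR called 0 (smallest adjusted p 0.245); 331 (3.53%) had an unadjusted p under 0.05, 109 (1.16%) higher and 222 (2.37%) lower. DESeq2 called 11 (0.117%), all lower, and 45 without the 2 libraries that stood apart (26 higher, 19 lower). With all libraries DESeq2 gave no adjusted p to 5631 genes at 25 °C, against 0 at 18 °C, so the shares of the 2 temperatures are not alike. Groups that did not overlap were found for 37 genes higher and 83 lower (1.28% in all).

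The test of the temperature difference itself (18 °C minus 25 °C) called 0 genes with edgeR, where the smallest adjusted p was 1, and 166 (1.77%) had an unadjusted p under 0.05, 60 (0.64%) above 0 and 106 (1.13%) below 0. DESeq2 called 2 (0.0213%), Ate1 and the antimicrobial gene CecA1, and 30 without the 2 libraries that stood apart (2 above 0, 28 below 0). The difference was 0.69 ± 0.14 for Ate1, 0.60 ± 0.19 for numb, 1.10 ± 0.39 for CG10097 and 1.36 ± 0.48 for CG15406 (SE; edgeR adjusted p = 1 for each). The sizes within each temperature are therefore given side by side, and none is shown by edgeR to differ between them.

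Lists of metabolic genes lay on the lower side after lights off at both temperatures, by small amounts. The median log2 difference of all tested genes was 0.016, and none of the list members passed edgeR's adjusted threshold, so that the counts that follow are of unadjusted p under 0.05, to be read beside the 3.08% higher and 4.64% lower among all genes. Of 29 amino acid breakdown genes, 0 were higher and 12 lower, with a median of -0.28 (-0.22 at 18 °C, -0.26 at 25 °C). Of 24 genes of lipolysis and fatty acid oxidation, 0 were higher and 9 lower, with a median of -0.24 (-0.22 at 18 °C, -0.27 at 25 °C). Of 33 genes of glycogen, trehalose and glycolysis, 0 were higher and 7 lower, with a median of -0.20 (-0.20 at 18 °C, -0.25 at 25 °C). In the same order, 16, 17 and 15 members were lower in all 4 blocks, and 0, 0 and 1 were higher in all 4. Among all tested genes 14.1% were lower and 13.1% higher in all 4 blocks. Lists outside metabolism lay lower as well. The median was -0.43 for 16 secreted yolk, storage and lipid carrier proteins (0 higher, 1 lower). It was -0.22 for 13 fat body derived signals (0 higher, 2 lower) and -0.16 for 32 immune recognition and signalling genes (0 higher, 3 lower). The fat body marker list had a median of -0.45. Its summed level had a lower median after lights off at 18 °C (67900 against 89700 CPM) and at 25 °C (121000 against 155000 CPM), with overlapping ranges. The part of fat body content in the list medians was not tested.

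The amino acid genes included both aspartate aminotransferases, Got1 (-0.41) and Got2 (-0.51), the tyrosine pathway genes Tat (-0.55), Hpd (-0.43) and hgo (-0.41), the lysine pathway gene LKRSDH (-0.91), and v (-0.35), which opens the tryptophan ring. Got2 had 8.17 to 9.25 log2 CPM (median 8.91) after and 8.20 to 9.99 log2 CPM (median 9.45) before, and the groups overlapped. Tat, the first step of tyrosine breakdown, had 5.02 to 6.91 log2 CPM (median 6.36) after and 6.34 to 7.34 log2 CPM (median 6.78) before, and these overlapped too. Sardh had the largest value of the list (-1.36) and the least RNA, at -0.96 to 0.84 log2 CPM after and -1.01 to 2.59 log2 CPM before.

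In the fat-burning list, bmm, the main triglyceride lipase of the fat body and the fly counterpart of mammalian ATGL, had 6.39 to 7.45 log2 CPM (median 7.03) after lights off and 6.95 to 8.31 log2 CPM (median 7.34) before. Its log2 difference was -0.50 ± 0.17 (edgeR adjusted p = 0.538), with -0.59 ± 0.25 at 18 °C and -0.41 ± 0.25 at 25 °C. The other 8 lower members belong to the entry of fatty acids into mitochondria (whd -0.33, CPT2 -0.32, colt -0.31) and to their oxidation there (Mcad -0.33, Arc42 -0.29, Mtpalpha -0.30, Mtpbeta -0.28, Etf-QO -0.29). All of these values are close in size, and none passed the adjusted threshold.

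The sugar genes at an unadjusted p under 0.05 were Pepck2 (-1.05), UGP (-0.48), Pgi (-0.38), Hex-C (-0.37), fbp (-0.37), Ald1 (-0.32) and Pgm1 (-0.28), which serve both the making and the breakdown of glucose. Hex-C, a hexokinase gene, had 7.86 to 9.13 log2 CPM (median 8.38) after and 8.10 to 9.37 log2 CPM (median 8.76) before. The list of fatty acid synthesis and fat storage had 1 higher and 3 lower of 30, with a median of -0.18. Its higher member was Agpat2 (0.62 ± 0.24), of the enzyme family that builds phosphatidic acid, with 5.52 to 7.33 log2 CPM after and 5.08 to 6.70 log2 CPM before. Its lower members were the synthesis genes ACC (-0.43) and ATPCL (-0.27) and the acyl-CoA synthetase bgm (-0.54).

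Genes that fold proteins in the endoplasmic reticulum, the compartment that loads proteins for secretion, were lower in 11 of 25 and higher in 0, with a median of -0.24. The 11 were counted at both temperatures together. Counted within each temperature, 10 list members were lower at 18 °C and 1 at 25 °C, with list medians of -0.32 and -0.12. Of the 10, Sil1 and Hsc70-3 were not among the 11. The difference between the temperatures was not tested for the list. The 11 included the chaperones Gp93 (-0.48) and Calr (-0.31), the disulfide isomerases Pdi (-0.53) and CaBP1 (-0.45), and the channel genes Sec61alpha (-0.30), Sec61beta (-0.37), Sec63 (-0.33) and TRAM (-0.50). Pdi had 8.76, 8.81, 9.09 and 9.06 log2 CPM after lights off at 18 °C, against 9.29, 9.23, 10.15 and 9.44 log2 CPM before, and these groups did not overlap. At 25 °C they did, with 9.14 to 9.64 after and 9.26 to 10.39 before. The log2 difference of Pdi was -0.53 ± 0.15 (edgeR adjusted p = 0.512, DESeq2 adjusted p = 0.0402), and Sec63 was the other member that DESeq2 called. Beside these, DESeq2 also called the coat genes of vesicles leaving the reticulum, Sec24AB (-0.20 ± 0.06) and Sec24CD (-0.37 ± 0.10), and ArfGAP3 (-0.29 ± 0.09), which acts in vesicle traffic at the Golgi; all 3 were lower and were named after their values were seen.

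**Figure D3:**
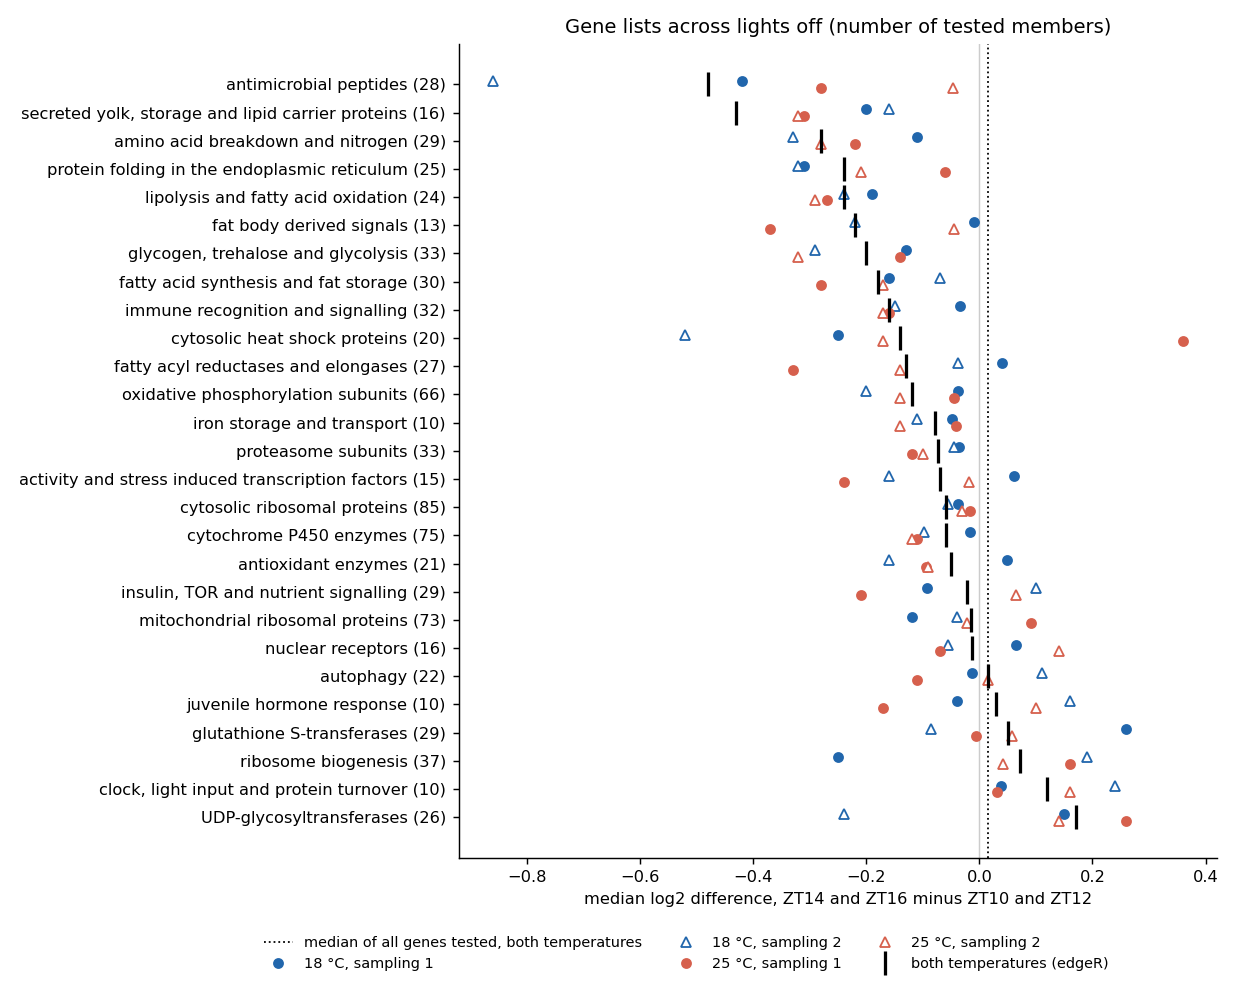
Median log2 difference (ZT14 and ZT16 minus ZT10 and ZT12, horizontal axis) of each gene list with at least 10 tested members, with the number of tested members in brackets, in the 4 blocks of temperature (18 °C blue, 25 °C red) and sampling (1 circles, 2 triangles). The black bar is the median of edgeR's log2 differences over both temperatures. It can lie outside the 4 block values because those are differences of mean log2 CPM. The lists of amino acid breakdown, fat burning, sugar metabolism and protein folding lie left of the dotted median of all genes (0.016) in all 4 blocks. So do those of fatty acid synthesis, secreted proteins, fat body signals, antimicrobial peptides, immune recognition and iron. The lists of oxidative phosphorylation, the proteasome, cytosolic ribosomal proteins and cytochrome P450 also lie left in all 4 blocks.

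Lists of large complexes differed by less. Among 66 oxidative phosphorylation subunits the median was -0.12 (-0.19 to -0.01 under other settings), with 65 below 0 and no p under 0.05 in either direction. The 85 cytosolic ribosomal proteins had a median of -0.06, which ran from -0.12 to 0.05 under other settings and so changed sign. All 33 proteasome subunits were below 0, with a median of -0.07 (-0.14 to 0.02 under other settings, so that its sign changed too) and no p under 0.05. Of all 9369 tested genes, 4396 were below 0. Members of a complex share libraries and scaling, so the counts of signs in these lists are not independent.

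Antimicrobial peptide genes varied widely between libraries. The median of 28 antimicrobial peptide genes was -0.48, -0.71 at 18 °C and -0.22 at 25 °C, with 0 higher and 1 lower over both temperatures at an unadjusted p under 0.05, and 0 higher and 8 lower at 18 °C. AttC, an attacin gene, had 1.49, 2.61, 2.87 and 2.67 log2 CPM after lights off at 18 °C, against 2.43, 9.41, 7.69 and 2.33 log2 CPM before. The high AttC values thus came from sampling 1 at ZT12 and sampling 2 at ZT10, and the other 2 libraries before lights off were at the level of those after. At 25 °C the highest AttC value, 9.47 log2 CPM, was after lights off (sampling 1, ZT14), in the library with the most gut RNA.

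Irk1, Irk3 and CG17752 were among the genes with higher RNA that were named after their values were seen. Irk1 and Irk3 encode inward-rectifier potassium channels. Irk1 (FBgn0265042, chromosome 3R, 23168317 to 23185642, plus strand) had 5.37, 5.36, 4.73 and 4.54 log2 CPM after lights off at 18 °C, against 4.5, 4.52, 3.87 and 4.14 log2 CPM before. At 25 °C it had 5.12, 5.13, 4.27 and 4.2 log2 CPM after, against 4.94, 3.97, 4.00 and 3.99 log2 CPM before. The groups were apart at 18 °C. At 25 °C they were apart but for the library of sampling 1, ZT10, the one that stood apart by photoreceptor RNA. The log2 difference of Irk1 was 0.58 ± 0.13 (edgeR adjusted p = 0.389, DESeq2 adjusted p = 0.00801). Irk3 differed by 1.07 ± 0.28 and CG17752, of the organic cation transporter family, by 1.4 ± 0.37 (edgeR adjusted p = 0.51 for each). CG17752 had 6.97, 7.63, 5.74 and 5.42 log2 CPM after lights off at 18 °C, against 3.88, 5.27, 4.60 and 3.97 log2 CPM before, and these did not overlap. A pair of subunit genes of the vacuolar proton pump, Vha26 (0.26 ± 0.08) and VhaAC39-1 (0.25 ± 0.07), were also called by DESeq2. Irk3 is itself on the list of 10 Malpighian tubule markers, whose median was 0.42 (0.63 at 18 °C, 0.19 at 25 °C) and of which 2 were higher at an unadjusted p under 0.05, Irk3 and Oatp58Db (0.82). The summed level of that list was 406 to 675 CPM after and 296 to 648 CPM before. At 18 °C it was higher after lights off within each sampling. Sampling 1 had 675 and 658 CPM after, against 487 and 478 CPM before, and sampling 2 had 475 and 406 CPM after, against 357 and 296 CPM before. The part of tubule RNA in these values was not tested.

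Whether the step at lights off exceeds those of the neighbouring hours was asked with the same spacing of times. The late-day step (ZT10 and ZT12 minus ZT6 and ZT8) and the early-night step (ZT18 and ZT20 minus ZT14 and ZT16) share libraries with the lights-off step, and their own values are set side by side here with no test between them. In the late-day step edgeR called 2 of 9250 genes (0.0216%), Ugt36D1 (-0.68 ± 0.09, adjusted p = 0.0145) and CG17560 (-1.09 ± 0.16, adjusted p = 0.0492), both of which fell. At an unadjusted p under 0.05 there were 375 genes (4.05%), and DESeq2 called 5 (0.0541%), 1 (0.0108%) higher and 4 (0.0432%) lower. In the early-night step edgeR called 1 of 9305 (0.0107%), the ion channel gene Ih, which rose (0.73 ± 0.09, adjusted p = 0.014), while 2620 genes (28.2%) had an unadjusted p under 0.05 and DESeq2 called 1446 (15.5%). Leaving out either sampling took both edgeR counts to 0. The share of the lights-off step, 7.73%, lay between those of its neighbours. One library was left out of the early-night step, wild type at 18 °C, sampling 1, ZT20, because its column was identical to that of ZT2.

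**Figure D4:**
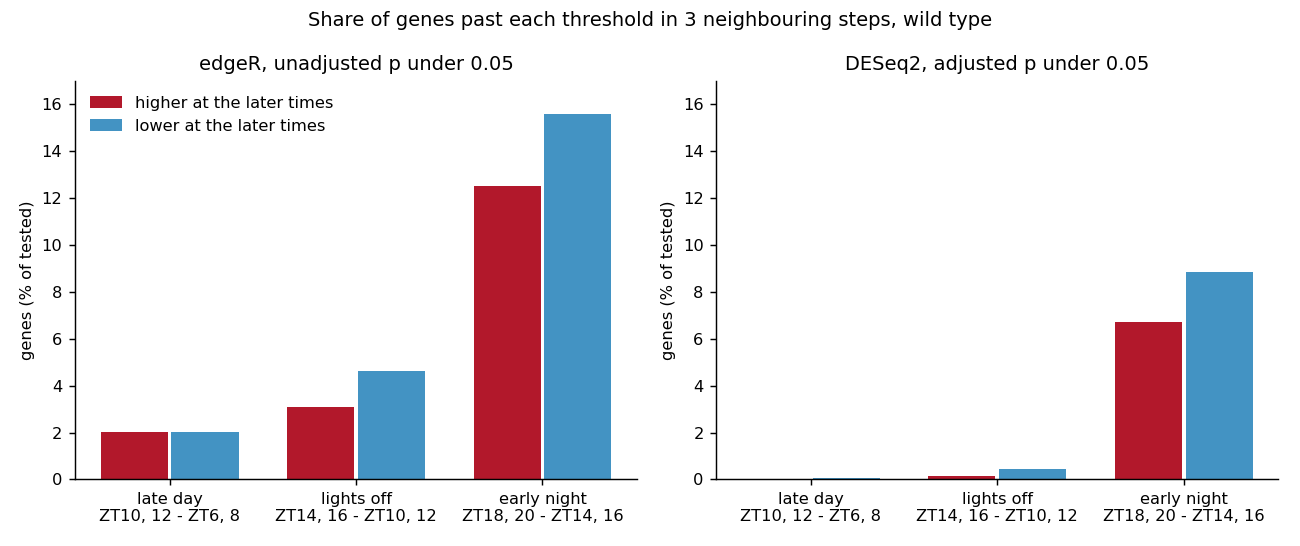
Share of tested genes (percent, vertical axis) past an unadjusted p under 0.05 in edgeR and past an adjusted p under 0.05 in DESeq2, for the late-day, lights-off and early-night steps of wild-type flies, with red bars for genes higher and blue bars for genes lower at the later times. In edgeR the early-night step holds 12.5% higher and 15.6% lower genes, the lights-off step 3.08% and 4.64%, and the late-day step 2.03% and 2.02%. DESeq2 gave no adjusted p to 3996 genes of the lights-off step, and to 0 genes of the late-day and early-night steps.

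The lights-off step minus the mean of its neighbours was then fitted over 31 libraries. This contrast contains the lights-off difference itself, with the most weight, since the neighbouring steps reuse its libraries; genes chosen for a small p across lights off are therefore favoured in it, and their values are a description. No gene passed edgeR's adjusted threshold (0 of 9596, smallest adjusted p 0.313). In edgeR 1021 (10.6%) had an unadjusted p under 0.05, 294 (3.06%) higher and 727 (7.58%) lower. DESeq2 called 46 (0.479%), 3 (0.0313%) higher and 43 (0.448%) lower, and gave no adjusted p to 6139. The value was -1.34 ± 0.33 for Miox, -1.17 ± 0.23 for GIIIspla2, -0.89 ± 0.24 for bmm and -0.70 ± 0.16 for Ugt36D1 (SE; edgeR adjusted p = 0.313 for each). Miox differed by 0.12 ± 0.20 in the late-day step and 0.33 ± 0.20 in the early-night step. Its means at 25 °C were 10.35, 10.78, 10.79, 11.07, 9.80, 9.31, 10.02 and 10.12 log2 CPM at ZT6 to ZT20. The 4 means up to ZT12 were thus above the 4 that followed. The log2 differences of Ugt36D1 were -0.68 in the late-day step, -0.69 across lights off and 0.68 in the early-night step. At 25 °C its means were 6.58, 6.47, 5.86, 5.83, 4.86, 4.92, 5.67 and 5.81 log2 CPM at ZT6 to ZT20. CG17560 had 11.09, 10.84, 9.97, 9.61, 8.63, 8.62, 9.10 and 9.32 log2 CPM over the same times, with its lowest levels at ZT14 and ZT16. For cry the means at 25 °C were 7.46, 7.58, 7.32, 7.42, 6.69, 6.50, 6.50 and 6.36 log2 CPM, and at 18 °C 7.6, 7.31, 7.06, 6.80, 6.58, 6.26, 6.82 and 7.16 log2 CPM. The 4 cry means up to ZT12 were above the 4 that followed at 25 °C, and at 18 °C each mean was below the one before it from ZT6 to ZT16.

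The same clock hours were compared in Clk-Jrk flies at 25 °C, ZT14 against ZT10, with 2 libraries at each time and the wild-type libraries of 25 °C beside them. The RNA level of Clk is no check of this allele, whose product is cut short, but tim, a target of Clk, was at 4.36 and 4.02 log2 CPM (ZT14) and 2.56 and 4.57 log2 CPM (ZT10) in Clk-Jrk, against 8.57 and 8.21 log2 CPM (ZT14) and 8.27 and 7.54 log2 CPM (ZT10) in wild type. Ugt36D1, CG17560, Miox and cry had negative differences in wild type and small positive ones in Clk-Jrk, none of them past the adjusted threshold. They were chosen for a small p across lights off, partly from these wild-type libraries, which favours the negative wild-type value and with it the genotype difference. Ugt36D1 had 6.69 and 7.14 log2 CPM at ZT14 and 6.46 and 6.88 log2 CPM at ZT10 in Clk-Jrk, against 4.94 and 4.57 log2 CPM at ZT14 and 5.61 and 5.88 log2 CPM at ZT10 in wild type. The wild-type groups were apart and the Clk-Jrk groups overlapped, at a higher level. Its log2 difference (ZT14 minus ZT10) was 0.24 ± 0.17 in Clk-Jrk and -1.0 ± 0.17 in wild type, and these differed by 1.25 ± 0.24 (SE; edgeR adjusted p = 0.456). CG17560 differed by 0.10 ± 0.23 in Clk-Jrk and -1.36 ± 0.23 in wild type, a difference of 1.45 ± 0.32 (edgeR adjusted p = 0.47). Miox differed by 0.35 ± 0.27 in Clk-Jrk and -0.99 ± 0.27 in wild type, a difference of 1.34 ± 0.38 (edgeR adjusted p = 0.475). For cry the values were 0.29 ± 0.20 in Clk-Jrk and -0.61 ± 0.20 in wild type, and their difference was 0.90 ± 0.28 (edgeR adjusted p = 0.521). Other genes of small p across lights off differed more within Clk-Jrk (edgeR adjusted p = 0.615 for each). The Clk-Jrk values were 1.96 ± 0.60 for CG7084 and 1.87 ± 0.58 for CG15406, against -0.20 ± 0.56 and -0.58 ± 0.56 in wild type. They were 0.98 ± 0.32 for CG10877 and -0.70 ± 0.25 for Cdc7, against 0.40 ± 0.31 and -0.20 ± 0.25 in wild type.

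Over all 9680 genes of this fit, edgeR called 0 for the genotype difference, and 915 (9.45%) had an unadjusted p under 0.05, 462 (4.77%) with a higher and 453 (4.68%) with a lower value in Clk-Jrk. DESeq2 called 80 (0.826%) and gave no adjusted p to 563 genes. Without the Clk-Jrk library of ZT10, sampling 1, edgeR called 19. Within Clk-Jrk edgeR called 0 (748 at an unadjusted p under 0.05, 7.73%; DESeq2 called 44), and within wild type at 25 °C also 0 (604, 6.24%; DESeq2 called 54). Without that same Clk-Jrk library the count in Clk-Jrk was 22, and without the wild-type library of ZT10, sampling 2, the count in wild type was 34. The sugar metabolism list had a median ZT14 minus ZT10 difference of 0.26 in Clk-Jrk and -0.53 in wild type, and 18 of its members had a higher and 1 a lower value in Clk-Jrk at an unadjusted p under 0.05. The fat-burning list had medians of 0.23 in Clk-Jrk and -0.37 in wild type, with 8 higher and 1 lower. Those of the amino acid list were 0.15 in Clk-Jrk and -0.32 in wild type, with 7 higher and 1 lower. The lists too had been seen to be lower across lights off in wild type, partly in these libraries. The wild-type ZT10 library of sampling 1 is the one that stood apart by photoreceptor RNA, and the ZT14 library of that sampling by gut RNA. The median ZT14 minus ZT10 difference in Clk-Jrk was -3 for gut, -2.4 for ovary and 0.75 for photoreceptor markers, against 3, 0.89 and -4.2 in wild type. Of 29 gut markers, 0 had a higher and 16 a lower value in Clk-Jrk at an unadjusted p under 0.05. The part of this RNA in the genotype differences was not tested.

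**Figure D5:**
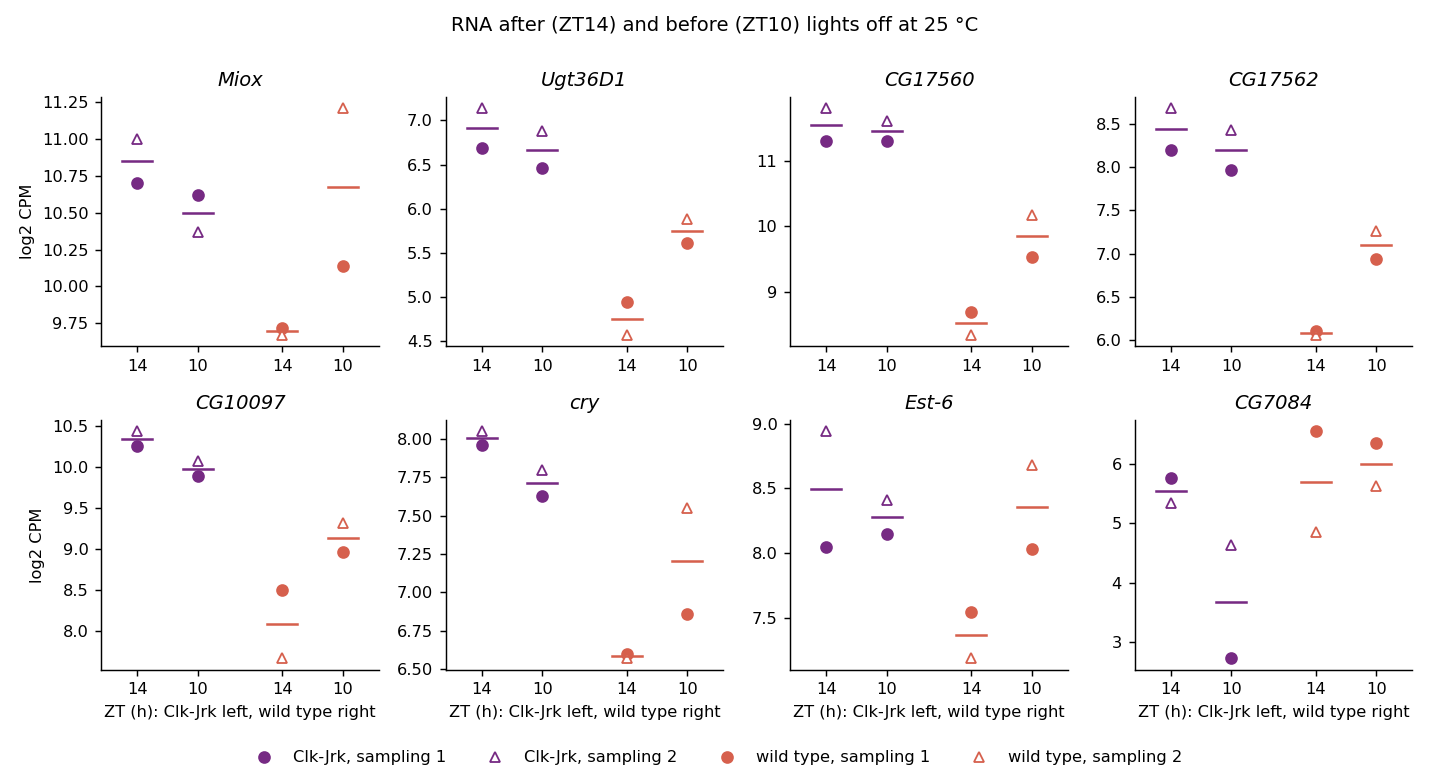
RNA level (log2 CPM, vertical axis) of 8 genes at ZT14 and ZT10 (horizontal axis, hours) at 25 °C in Clk-Jrk (purple, left) and wild-type flies (red, right), with circles for sampling 1, triangles for sampling 2 and bars for the mean of the 2 libraries. Miox, Ugt36D1, CG17560, CG17562 and CG10097 are lower at ZT14 than at ZT10 in both samplings of wild type, whereas in Clk-Jrk they are above the ZT10 level of the same sampling, except CG17560 in sampling 1 (11.30 at ZT14, 11.31 at ZT10).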

How the data were processed

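The authors quantified reads with kallisto 0.46.2, per the submitters' processing notes. The authors deposited estimated counts per gene for 13969 genes, unscaled, and TPM, which are scaled for length and library total. Of the nonzero estimated counts, 80.5% were whole to within 0.001. The labels used here do not state the transcriptome release, the summing to genes or any use of strand. Gene symbols (13949 IDs matched) and positions come from the BDGP6.54 annotation, a separate source.

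Samples were grouped by their labels. Estimated counts were rounded, genes kept by filterByExpr and libraries scaled by TMM. The main test was edgeR 4.0.16 (R 4.3.3), a quasi-likelihood test with Benjamini-Hochberg adjustment over all tested genes and a threshold of 0.05. Its design held lights off and a 4-level block of temperature by sampling, with 11 residual degrees of freedom, or lights off nested in temperature, with 10. The series design gives the replicate numbers as independent samplings; deviations of same-numbered libraries correlated at -0.0678 to 0.412 at 18 °C and -0.0824 to 0.689 at 25 °C. Clk-Jrk was compared in a fit of 24 libraries of 25 °C at 6 times with a genotype by sampling term. Levels are log2 CPM with a prior count of 2, scaled within each fit, so that they differ slightly between fits. Depth per library is given in ranges above, and the spread between libraries sets the precision.

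Alternatives were DESeq2 1.42.0, RLE size factors, limma-trend (limma 3.58.1) on log2(TPM + 1), dropping the filter or keeping genes with a mean of 3 log2 CPM or more, no replicate block, other pairs of times, and leaving out libraries. The fit functions were tested on simulated data. The 30 gene lists and 11 marker lists, and the comparison itself, were chosen with earlier results of these data known; 9 list symbols were not matched. Outside the clock lists, genes were to be named among those past the adjusted threshold, which gave none, so the 20 smallest p over both temperatures and the 6 smallest in each temperature were taken among genes with a mean of 3 log2 CPM or more and 1 sign in every block compared. Plots were drawn with Python 3.11.15.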

Additional observations from a re-analysis of the deposited data

Results flagged for a closer look

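In 19 of 212 groups of 4 libraries, 1 library lay far from the other 3 relative to the group's range (Dixon's criterion, which chance meets in about 1 of 20 groups). Log2 CPM values follow, with the range of the other 3. At 25 °C after lights off, Miox was lowest at ZT16, sampling 1 (8.89, others 9.82 to 9.87), CG7084 lowest at ZT14, sampling 2 (5.00, others 6.51 to 6.70), and CG4995 highest at ZT16, sampling 2 (5.15, others 4.47 to 4.55). At 25 °C before lights off, 5 genes were met. Irk1 was highest at ZT10, sampling 1 (4.94, others 3.97 to 4.00). GIIIspla2 (6.67, others 6.2 to 6.24) and Cdc7 (7.29, others 5.90 to 5.99) were highest at ZT12, sampling 1. Pdp1 was lowest at ZT10, sampling 2 (6.68, others 7.25 to 7.32), and CG13907 lowest at ZT12, sampling 2 (5.40, others 5.63 to 5.64). At 18 °C after lights off, Est-6 (7.44, others 6.35 to 6.52) and CG11842 (5.10, others 4.42 to 4.53) were highest at ZT14, sampling 2. At 18 °C before lights off, wdb (7.30, others 6.51 to 6.57) and Septin4 (4.54, others 3.96 to 4.02) were highest at ZT12, sampling 1.

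The other 7 concern marker sums in CPM. At 25 °C before lights off, the ZT10 library of sampling 1 held the highest gut (3600, others 500 to 658), photoreceptor (2620, others 92.0 to 129) and spermatheca sums (68.2, others 0.161 to 0.707). At 25 °C after lights off, the Malpighian tubule sum was lowest at ZT14, sampling 2 (433, others 598 to 609), the library in which CG7084 was lowest. At 18 °C before lights off, the haemocyte sum was lowest at ZT10, sampling 2 (2320, others 2900 to 2930). The 18 °C spermatheca sum was highest at ZT14, sampling 1, after lights off (119, others 0.165 to 0.637) and at ZT10, sampling 1, before it (28.3, others 0.161 to 0.729).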

How the results depend on the processing

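The lights-off count of 0 in edgeR was 0 to 1 when each library was left out (the 1 was Miox, without 18 °C, sampling 1, ZT16), 53 with DESeq2, and 55 with DESeq2 without the 2 libraries that stood apart, 27 higher and 28 lower, of which 28 were among the 53 (52.8% of 53, 50.9% of 55). Without the replicate block it was 0. At 18 °C the count was 38 with DESeq2, 37 with DESeq2 without those libraries, 1 for ZT14 minus ZT12 (Cp18), and 0 to 0 when each library was left out. At 25 °C it was 11 with DESeq2, 45 with DESeq2 without those libraries (26 higher, 19 lower), 1 with limma-trend on TPM (CG17562), 12 for ZT14 minus ZT12 (all higher, among them the gut proteases Jon25Bi and Jon25Bii), and 0 to 2 when each library was left out (CG17562 and Ugt36D1, without 18 °C, sampling 2, ZT16). For the temperature difference it was 2 with DESeq2, 30 with DESeq2 without those libraries (2 above 0, 28 below 0) and 28 for ZT14 minus ZT12.

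The late-day count of 2 was 5 with DESeq2 and 0 to 0 when either sampling was left out. The early-night count of 1 was 1446 with DESeq2, 0 with no replicate block and 0 to 0 when either sampling was left out. The count beyond the neighbours was 46 with DESeq2. For Clk-Jrk it was 44 with DESeq2 and 0 to 22 over left-out libraries (22 without ZT10, sampling 1), for wild type at ZT14 and ZT10 54 and 0 to 34 (34 without ZT10, sampling 2), and for the genotype difference 80 and 0 to 19. The cause of these differences was not tested.

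Of 3690 recomputed values of named genes, 109 took the opposite sign with both values within 1 SE of 0, and 4 did so with at least 1 of the 2 values outside it: per at 18 °C in ZT16 minus ZT10 (-0.05), tim at 18 °C without replicate 2 (0.26, and -0.27 without replicate 1), cwo at 18 °C without replicate 1 (-0.34, and 0.42 without replicate 2) and numb at 25 °C in ZT16 minus ZT10 (-0.09). Over the same settings the median of the amino acid list ran from -0.36 to -0.20, that of the fat-burning list from -0.32 to -0.15, that of the sugar list from -0.29 to -0.11 and that of protein folding from -0.36 to -0.15. At 25 °C alone, protein folding ran from -0.36 to 0.04.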

Other observations

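Detoxification lists were counted at an unadjusted p under 0.05 without a test of their direction. Among all tested genes 3.08% were higher and 4.64% lower by the same measure. Of 29 glutathione S-transferase genes, 3 were higher and 0 lower, led by GstD2 (1.16) and GstE10 (0.83). GstD2 had little RNA, with a mean of 0.77 log2 CPM. Of 26 UDP-glycosyltransferases, 1 was higher and 3 lower, Ugt36D1 among the lower, with a median of 0.17 that ran from -0.10 to 0.38 under other settings. Of 75 cytochrome P450 genes, 1 was higher and 6 lower, with a median of -0.06. The fatty acyl reductases and elongases, which include CG17560 and CG17562, had 1 higher and 4 lower of 27, with a median of 0.03 at 18 °C and -0.24 at 25 °C.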
